A study of Mus musculus with 12 samples.

Results

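A set of 35 genes known for their work in germ cells was followed in chondrocyte pellets. They were chosen by name from the 23572 genes of the RNA-seq tables: Dazl, Ddx4, Sycp1, Sycp2, Sycp3, Mael, Tdrd1, Tdrd6, Tdrd9, Piwil1, Piwil2, Piwil4, Tex14, Tex15, Stk31, Rnf17, Asz1, Hormad1, Hormad2, Stag3, Smc1b, Rec8, Slc25a31, Dpep3, Dmrtb1, Sohlh1, Sohlh2, Gtsf1, Zp3, Nobox, Stra8, Dppa3, Brdt, Mov10l1 and Mei1. Promoter methylation was read at CpG cytosines from 1500 bp upstream to 500 bp downstream of each gene's annotated 5′ end. A cytosine entered when it was covered by at least 10 reads in all 6 methylation libraries, and is called a shared site here. Of the 35 genes, 20 had 3 or more shared sites and were described and tested, 6 had 1 or 2, and 9 had none.

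The cells were chondrocytes of C57BL/6J pups aged 5 to 6 days, taken from the cartilage of femoral heads and tibial plateaus and expanded in monolayer in DMEM/F12 with 10% FBS. They were then kept as 3D pellets, with ascorbic acid and ITS in the same medium, until Week 1 (day 7) or Week 3 (day 21). RNA-seq of poly A RNA and enhanced reduced representation bisulfite sequencing (ERRBS, which reads the ends of MspI fragments) had 3 libraries each per week, 12 in all. The series set the weeks apart to follow methylation and expression during hypertrophic differentiation, and both weeks are pellets, so neither is an untreated control.

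Germline genes of this kind have promoters rich in CpG that gain DNA methylation in the early embryo, around implantation, and keep it in somatic tissues. The de novo enzymes DNMT3A and DNMT3B write the mark, DNMT1 with UHRF1 copies it at replication, and a Polycomb complex with E2F6, MGA and PCGF6, together with the H3K9 methyltransferases SETDB1 and G9a (gene Ehmt2), is known to help keep many of these genes off. Loss of the mark in mice is known to switch on genes such as Dazl and Sycp3 in somatic cells.

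Promoter sequences of 6 of the genes, from RefSeq on GRCm38.p6, are shown because they span the range of levels found, from nearly fully methylated to unmethylated. Each runs 5′ to 3′ from 250 bases before to 50 bases from the start of transcription, and capitals mark the CpGs measured in all 6 libraries. Of the 35 genes, 30 had an entry in the RefSeq promoter table by symbol, and Tdrd6, Piwil2, Tex15, Rnf17 and Dppa3 did not.
Mael: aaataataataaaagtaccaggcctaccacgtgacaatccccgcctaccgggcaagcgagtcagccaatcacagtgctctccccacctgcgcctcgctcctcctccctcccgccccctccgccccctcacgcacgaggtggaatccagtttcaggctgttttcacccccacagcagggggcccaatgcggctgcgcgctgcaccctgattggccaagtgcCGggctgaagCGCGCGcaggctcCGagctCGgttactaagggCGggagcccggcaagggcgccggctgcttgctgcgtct
Slc25a31: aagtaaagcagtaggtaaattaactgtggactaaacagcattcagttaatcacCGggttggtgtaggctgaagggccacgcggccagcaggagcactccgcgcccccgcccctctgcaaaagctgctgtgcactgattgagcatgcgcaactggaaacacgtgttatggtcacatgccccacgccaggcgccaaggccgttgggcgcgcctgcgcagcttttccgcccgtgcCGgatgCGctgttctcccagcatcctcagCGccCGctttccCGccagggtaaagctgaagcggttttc
Sycp1: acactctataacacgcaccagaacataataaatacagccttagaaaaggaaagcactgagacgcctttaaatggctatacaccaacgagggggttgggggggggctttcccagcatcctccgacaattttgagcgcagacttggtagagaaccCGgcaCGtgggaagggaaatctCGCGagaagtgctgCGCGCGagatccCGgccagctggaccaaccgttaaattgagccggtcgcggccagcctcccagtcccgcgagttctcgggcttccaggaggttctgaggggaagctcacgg
Ddx4: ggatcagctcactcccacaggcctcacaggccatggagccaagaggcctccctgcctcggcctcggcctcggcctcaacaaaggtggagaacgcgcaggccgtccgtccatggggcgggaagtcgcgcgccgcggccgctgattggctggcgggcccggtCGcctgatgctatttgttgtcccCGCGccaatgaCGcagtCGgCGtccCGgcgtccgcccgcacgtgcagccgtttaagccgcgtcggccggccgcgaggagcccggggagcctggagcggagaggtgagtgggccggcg
Hormad2: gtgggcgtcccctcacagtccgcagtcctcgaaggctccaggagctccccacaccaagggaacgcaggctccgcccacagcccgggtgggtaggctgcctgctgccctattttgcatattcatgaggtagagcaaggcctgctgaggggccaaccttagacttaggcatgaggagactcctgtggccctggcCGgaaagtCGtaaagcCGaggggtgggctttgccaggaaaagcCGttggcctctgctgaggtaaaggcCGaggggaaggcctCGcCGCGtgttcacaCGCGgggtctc
Smc1b: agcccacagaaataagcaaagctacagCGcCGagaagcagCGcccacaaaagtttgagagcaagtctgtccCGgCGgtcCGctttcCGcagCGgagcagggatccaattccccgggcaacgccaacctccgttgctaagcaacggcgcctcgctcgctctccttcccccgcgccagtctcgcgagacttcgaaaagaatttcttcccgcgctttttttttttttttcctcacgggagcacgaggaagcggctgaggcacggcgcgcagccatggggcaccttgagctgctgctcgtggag
The stretch of Mael (chr1:166238695-166238994, minus strand) held 7 measured CpGs with a mean methylation of 93.6%, that of Slc25a31 (chr3:40708621-40708920, plus strand) 6 with 92.2%. Sycp1 (chr3:102936051-102936350, minus strand) held 8 with 81.8%, and Ddx4 (chr13:112652261-112652560, minus strand) 7 with 56.3%. Hormad2 (chr11:4441033-4441332, minus strand) held 10 with 34.1%, and Smc1b (chr15:85131908-85132207, minus strand) 8 with 1.69%. All of these levels are means over the 6 libraries of the sites inside the printed stretch. In Sycp1, 7 of the 8 lay between 73.6% and 98.4%, and the site at position -49 from the start read 1.16%. That cytosine sits at the end of a 48 bp MspI fragment, and whether this bears on its value was not tested.

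RNA libraries held 14361518 to 19774396 counts over genes. ERRBS libraries shared 724670 cytosines, all at a CpG of GRCm38.p6, with a median coverage of 17 to 66 reads per library. The cells carried their label: 6 chondrocyte markers (Col2a1, Acan, Sox9, Col9a1, Matn1 and Hapln1) summed to 11760 to 23470 CPM (gene counts scaled to a common library size by TMM) at Week 1 and 23940 to 26300 CPM at Week 3. Macrophage markers summed to 15.3 to 26.2 CPM at Week 1 and 8.11 to 21.7 CPM at Week 3, with 2 of 4 lower at Week 3, and endothelial markers to at most 2.20 CPM. Markers of gonad support cells summed to 11.5 to 12.2 CPM at Week 1 and 7.01 to 8.41 CPM at Week 3, mostly Inha, and the Sertoli and granulosa cell receptor gene Fshr was at 0 counts in all 6 libraries. Among the methylation libraries, Week 3 replicate 2 stood apart. Its promoter levels of the 20 germline genes lay on average 6.62 percentage points from the median library, against 1.38 to 3.68 points in the other 5. Over all promoters this library also had the largest mean deviation, 1.82 points against 0.644 to 1.04 points in the other 5. Results that rest on it are given with and without it.

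Most of the measured promoters were methylated at their shared sites, which did not always reach the start. Of the 20 germline genes with 3 or more shared sites, 15 had a mean level of 50% or more over the 6 libraries, 2 lay between (Hormad2 at 48.8% and Mei1 at 25.99%) and 3 were below 10% (Tdrd6, Smc1b and Stag3). Their median was 83.8%. Over the 12906 genes with as many sites, 4.96% were at 50% or more, 87.9% were below 10%, and the median was 0.734%. The set is named for genes silenced by promoter methylation. Of the 20, 12 were both at 50% or more and below 1 CPM in all 6 RNA libraries. Whether methylation is what keeps these 12 silent was not tested.

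These levels were also set beside those of promoters of like CpG content. By the densest 500 bp window in the promoter, 13 of the 20 were high-CpG promoters (at least 55% GC and a CpG ratio of at least 0.75 observed over expected) and 7 intermediate. In the high class, 9 of 13 germline promoters were at 50% or more, against 57 of 9963 (0.572%) of all high-CpG promoters, and these 9 make up part of the 57. Another 2 of the 57, Spo11 (86.1%) and Meioc (59.6%), were on a list of 44 other germline genes. In the intermediate class the shares were 6 of 7 and 11.96% of 2391, and in the low class, with no tested germline gene, 53.8% of 552. The germline genes were chosen by name with earlier results known, so these shares are a description.

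**Figure D1:**
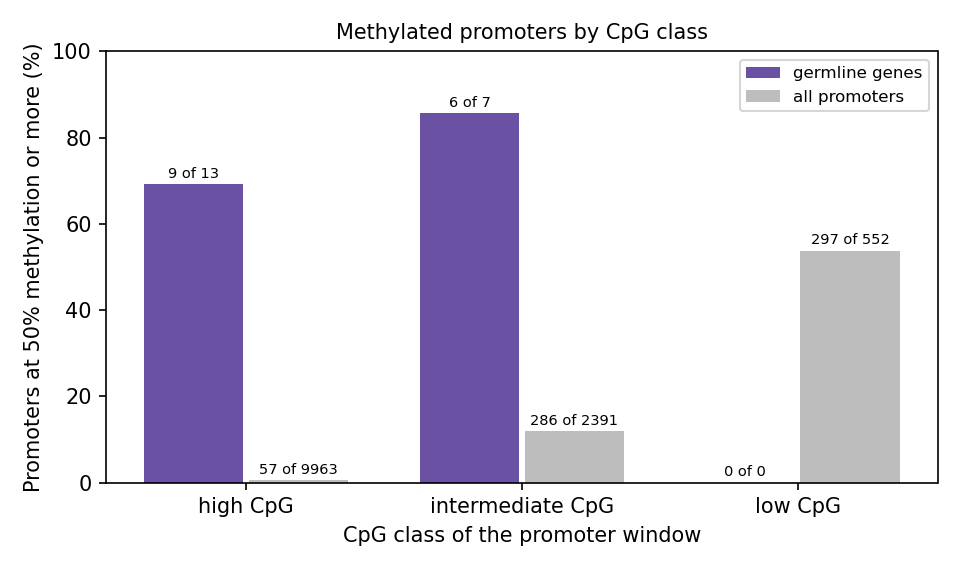
Share of promoters at 50% methylation or more (vertical axis, percent, from 0) by CpG class of the promoter window (horizontal axis), for the germline genes (purple) and for all promoters with 3 or more shared sites (grey), with the numbers above the bars. In the high-CpG class 9 of 13 germline promoters reach 50%, against 57 of 9963 of all promoters.

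Among the promoters with 3 or more shared sites, the 5 highest were those of Tex14, Dpep3, Sohlh2, Mael and Sycp2. Tex14, which is needed for the bridges between germ cells, had 95.02% ± 1.44 at Week 1 and 96.5% ± 2.18 at Week 3 (SD, n = 3), over 6 sites. Dpep3, a testis dipeptidase, followed at 94.5% ± 1.20 and 97.0% ± 0.543 over 3 sites, and Sohlh2, a transcription factor of early spermatogenesis and oogenesis, at 94.2% ± 0.677 and 94.3% ± 2.52 over 14 sites. Mael, a piRNA pathway factor, stood at 93.3% ± 2.87 and 94.3% ± 1.61 over 12 sites. Sycp2, of the axial element of the synaptonemal complex, stood at 90.9% ± 2.59 and 89.7% ± 5.65 over 12 sites. In these 5 genes the lowest single library was Sycp2 in Week 3 replicate 3, at 83.6%. The shared sites of Dpep3 lay at 253 to 280 bp and those of Sohlh2 at 294 bp and further downstream. Those of Sycp2 lay at -711 to -665 and 380 to 421 bp. Nearer the start, Sohlh2 sites at -54 to 33 bp, covered in 5 libraries, averaged 76.1% to 99.2%. Sycp2 sites at 8 to 56 bp, covered in 4 libraries, averaged 84.8% to 98.8%. In Dpep3 no site between -488 and 185 bp was covered, so its level at the start is not known.

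The other 10 of them at 50% or more lay between 55.4% and 89.2%. Sycp1, the transverse filament protein, had a mean of 85.7%, and Sycp3, of the axial element, 85.1%. Hormad1, an axis protein, had 78.5%. Slc25a31, the ADP/ATP carrier of meiotic cells, had 89.1%. Among germ cell RNA-binding proteins and helicases, Dazl had 89.2% over 24 sites, the largest number, and Ddx4 (Vasa) 59.4%. The shared Dazl sites lay at -618 to -492 and 76 to 417 bp. Between them, at -1 to 47 bp, sites covered in 4 libraries averaged 89.3% to 100%. Of the Tudor-domain proteins of the piRNA pathway, Tdrd9 had 88.0%, Rnf17 67.2% and Tdrd1 55.4%. The shared sites of Tdrd9 lay at 194 to 240 bp, and those of Tdrd1 at -1021 and 140 to 312 bp. Sohlh1, the partner of Sohlh2, had 82.5%. Averaged over the 15 genes at 50% or more, every library fell between 82.8% and 84.5%.

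**Figure D2:**
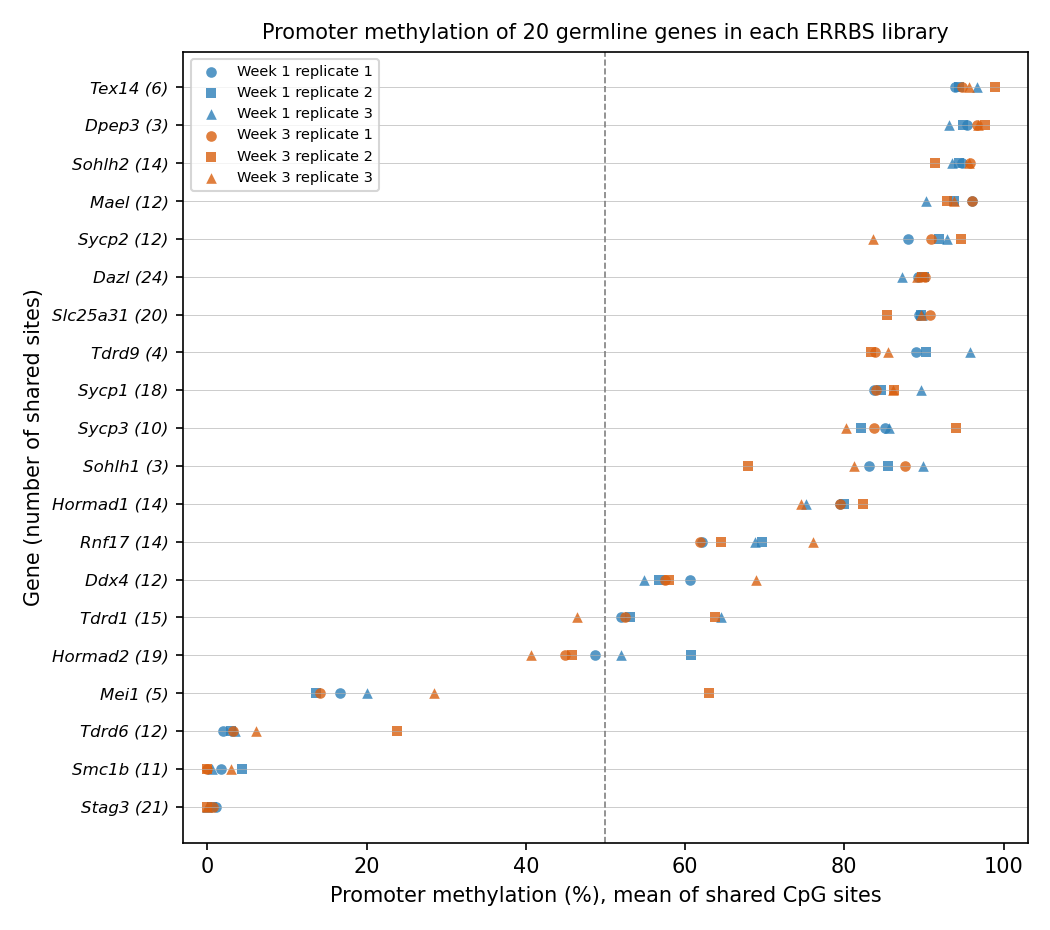
Promoter methylation (horizontal axis, percent, mean of the shared sites) of the 20 germline genes with 3 or more shared sites (vertical axis, with the number of sites), 1 point per ERRBS library; colour gives the week, shape the replicate, and the dashed line is 50%. Tdrd6, Smc1b and Stag3 sit below 10% in the mean, and Week 3 replicate 2 is far to the right of the other libraries in Mei1 and Tdrd6.

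Of the 6 genes with 1 or 2 shared sites, Asz1 (90.7%), Brdt (88.6%), Dmrtb1 (88.3%) and Zp3 (67.9%) lay above 50%, and Mov10l1 (45.7%) and Nobox (24.1%) below it. With sites covered in 4 or more libraries in place of all 6, a choice made after seeing the data, 28 genes could be described and 22 were at 50% or more. Those 28 included Stra8, the retinoic acid target that starts meiosis, at 94.5%, and Dppa3, a factor of primordial germ cells and the egg, at 78.0%. On that count Mov10l1, the helicase of the piRNA pathway, stood at 81.7%, and 1 gene, Tdrd6, was below 10%. Piwil1, Piwil2, Piwil4, Tex15, Stk31, Rec8 and Gtsf1 had fewer than 3 sites on either count.

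The 3 low promoters differed in where their sites lay. In Smc1b, which encodes the meiotic SMC1 subunit of cohesin, the 11 shared sites lay at positions -275 to -159 from the 5′ end (negative is upstream), next to the 5′ end of Ribc2, which is transcribed the other way and starts at -141 and was at 0.0974 CPM. Their mean was 2.21% ± 1.98 at Week 1 and 0.982% ± 1.70 at Week 3 (SD, n = 3). In Week 3 replicates 1 and 2 no call at any of the 11 sites was methylated. A read that covers several CpGs is counted at each of them, so the limit is taken from the best covered site alone: 0 of 76 and 0 of 64 reads, which allow up to 3.95% and 4.69%. On the other side of the start the picture was the opposite. The 17 sites at 83 to 331 bp downstream that were covered in 4 or more libraries averaged 65.2% and ranged from 22.9% to 94.0%. By library the downstream mean lay between 55.6% and 97.7%, from 3 to 18 sites, so in each of the 6 libraries the downstream side stood above the upstream side.

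Stag3, the meiotic cohesin subunit of the STAG family, showed the same arrangement. Its 21 shared sites lay at -1003 to -405, on both sides of the 5′ end of Gpc2 at -572, which is read in the other direction and was expressed at 8.19 CPM. They averaged 0.540% ± 0.538 at Week 1 and 0.247% ± 0.428 at Week 3 (SD, n = 3). In Week 1 replicate 3, Week 3 replicate 2 and Week 3 replicate 3 no call at any of these sites was methylated; the best covered site had 36, 63 and 31 reads there, and 0 of these allow up to 8.33%, 4.76% and 9.68%. Downstream of the Stag3 start, at 420 and 465 bp, the 2 sites covered in 4 or more libraries averaged 95.6%, with library means of 89.5% to 100% over the downstream sites. No site downstream of the start within the window was covered in Week 1 replicate 3.

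In Tex14 the shared sites lay on the gene's own side of the start. Their positions were 29 to 211 bp downstream, and Rad51c, which is read the other way and was expressed at 7.45 CPM, starts at -559. Sites at -403 to -331, covered in 1 to 3 libraries each, read 0% to 4.17%, between them and the start, at -38 to -2, 10 sites covered in Week 1 replicate 1 alone read 31.6% to 90.9%, and those at 29 to 322 bp covered in 4 or more libraries averaged 92.7%. In all 3 genes the low sites lay upstream of the gene's own start, towards or past that of the neighbour. Those of Tex14, and the Stag3 sites at -509 to -405, lay between the gene's start and the neighbour's. Ribc2 was itself nearly silent. The 5′ ends of other curated genes within the windows were found in these 3 of the 35 genes only, and a test of the boundary against other bidirectional promoters was not made.

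Tdrd6 and Dazl each carried a long stretch of low methylation. Tdrd6, a Tudor protein of the chromatoid body, read 0% to 29.7% at every covered site from -245 to 398 bp, and 0.26% to 24.3% at the 18 shared sites from 745 to 973 bp. Further into the gene, at 1002 to 1309 bp, 14 shared sites lay between 13.1% and 72.5%, and beyond 1777 bp 10 sites lay between 61.7% and 96.4%. Upstream, at -1027 to -445, sites covered in 1 or 2 libraries read 70.8% to 100%. In Dazl, an RNA-binding protein of germ cells, the promoter was at 89.2%, but just past the window, in an intron at 652 to 794 bp, 20 shared sites averaged 0.455% to 1.75% by library. The highest of these 20 sites averaged 6.01%, and no site of Dazl further into the gene was shared. Sites at 491 and 500 bp, covered in 4 libraries, averaged 15.56% and 17.99%. Dazl was below 1 CPM in every RNA library.

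**Figure D3:**
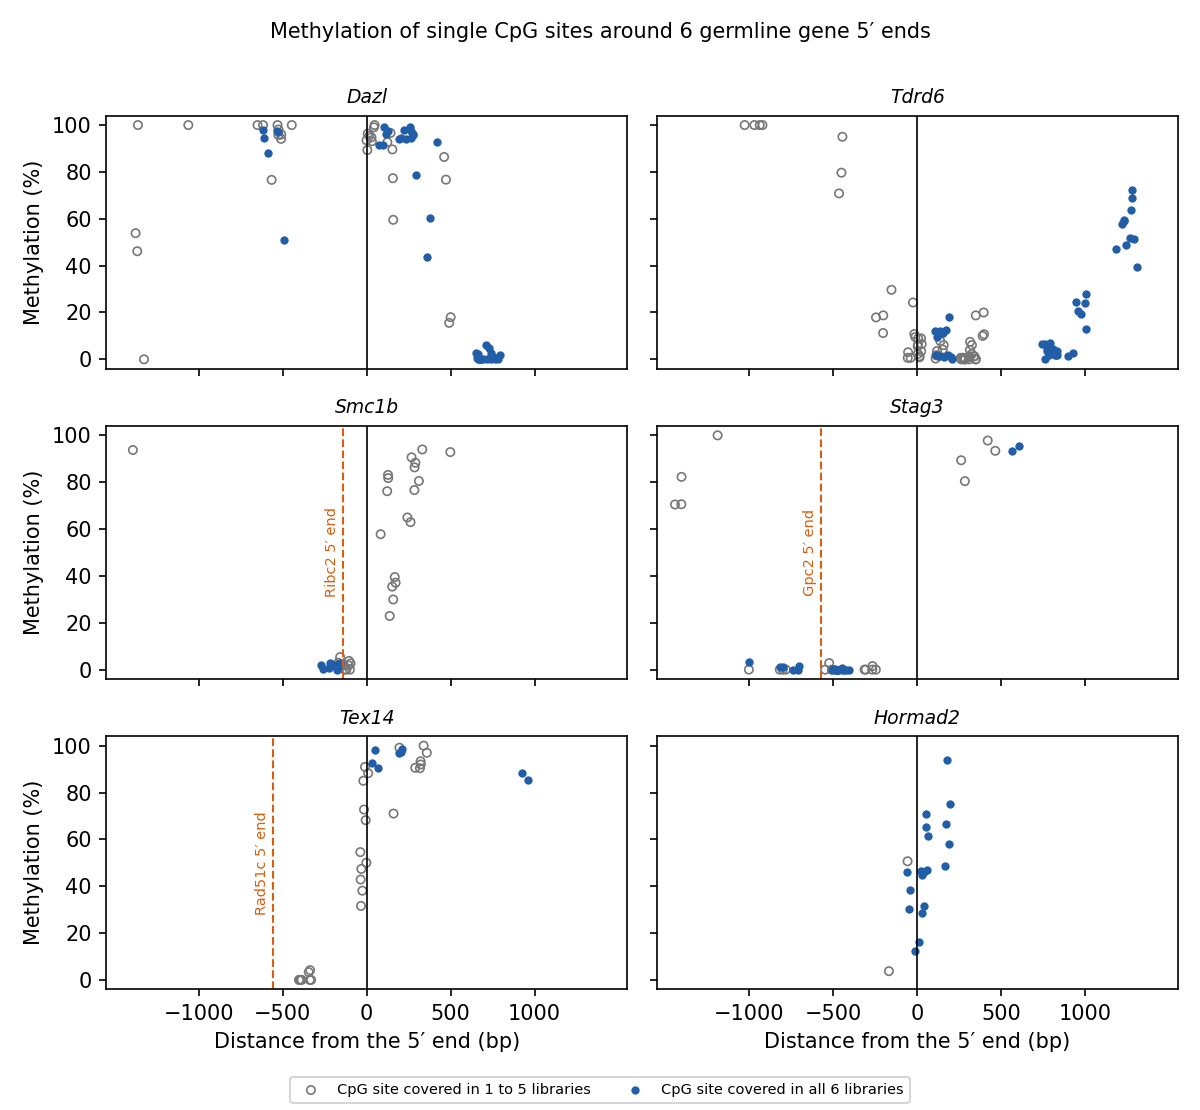
Methylation of single CpG cytosines (vertical axis, percent, mean over the libraries that covered the site) by distance from the gene's 5′ end (horizontal axis, bp, negative is upstream) for 6 germline genes. Filled points were covered in all 6 libraries and open points in 1 to 5; orange dashed lines mark the 5′ end of a neighbour read in the other direction. The low points of Smc1b, Stag3 and Tex14 lie upstream of the gene's start, Dazl falls to near 0% past 652 bp, and Tdrd6 is low across its start.

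Hormad2 and Mei1 lay in between. Hormad2, an axis protein related to Hormad1, was higher further into the gene: its sites at -58 to 51 bp averaged 12.5% to 70.7% and those at 164 to 195 bp 48.5% to 93.8%. Mei1, a factor for meiotic double-strand breaks, read 2.34% to 35.9% at -1 to 172 bp in the mean of the libraries that covered each site, and its 5 shared sites all lay at 128 to 172 bp. Upstream, at -807 and -804, 2 sites covered in 2 libraries read 100% and 89.0%.

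The gene bodies were mostly methylated: of 22 genes with a shared site past the window, 18 had a mean of 50% or more. The same share over all genes was not computed, so this count does not set the germline genes apart. Some of these means rest on few sites, as on 2 in Stk31 and 2 in Stra8. Mei1 had a mean of 83.3% over 19 shared sites past the window and Stag3 88.9% over 5. Piwil4 had 84.7% over 15, Tdrd9 77.6% over 38 and Mov10l1 72.6% over 23. Beside Dazl and Tdrd6 (39.1% over 42 sites), the bodies of Dppa3 (41.9% over 14 sites) and Sohlh2 (21.6% over 2 sites) were below 50%.

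RNA from the set was scarce. Of the 35 genes, 26 (74.3%) were below 1 CPM in all 6 libraries, against 39.5% of the 23572 genes. In 7 of them (Sycp1, Piwil1, Hormad1, Sohlh1, Zp3, Stra8 and Dppa3) no read was counted in any library, against 18.9% of all genes. Here 0 counts allow up to 0.160 to 0.202 CPM, the value of 3 counts in each library. Another 16 had at most 10 counts in any library: Dazl had 0 to 4, Ddx4 3 to 5, and Mael 0 to 2. The remaining 3 below 1 CPM, Sycp2, Tdrd1 and Mov10l1, reached at most 0.963, 0.696 and 0.785 CPM. In a pellet, a few cells with much of an RNA and many cells with little of it cannot be told apart.

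**Figure D4:**
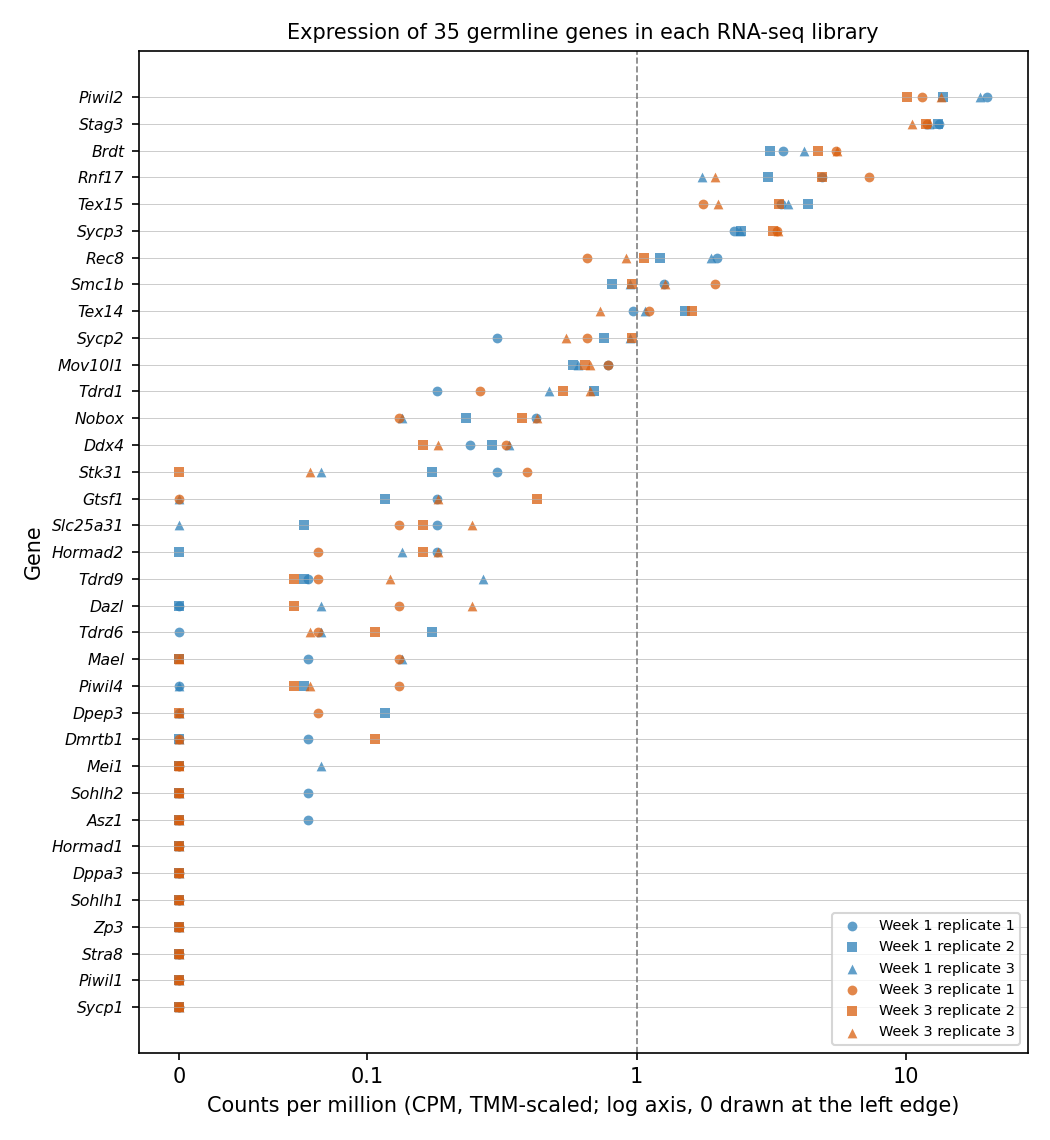
Expression of the 35 germline genes (vertical axis, ordered by mean) in CPM with TMM scaling (horizontal axis, log scale, 0 counts drawn at the left edge), 1 point per RNA-seq library; colour gives the week, shape the replicate, and the dashed line is 1 CPM. The 9 genes at the top reach 1 CPM in at least 1 library, led by Piwil2 and Stag3, and the 7 genes at the bottom have 0 counts throughout.

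The 9 genes that reached 1 CPM were Piwil2, Stag3, Brdt, Rnf17, Tex15, Sycp3, Rec8, Smc1b and Tex14. Per kilobase of exon, Piwil2, Stag3 and Sycp3 were the highest at Week 1, at 3.56, 3.05 and 2.13 CPM per kb, and Tex14 and Smc1b the lowest, at 0.248 and 0.2496. Of the 15 genes with a methylated promoter, 12 were below 1 CPM, which is 80.0% against 65.3% of the 640 methylated promoters of all genes. The exceptions were Sycp3, Rnf17 and Tex14. Of the 3 genes whose shared sites were below 10%, Stag3 and Smc1b reached 1 CPM. All shared sites of these genes lay upstream of the start. Downstream sites covered in 4 or more libraries averaged 95.6% in Stag3 (2 sites, at 420 and 465 bp) and 65.2% in Smc1b (17 sites). How either side bears on their expression was not tested. Tdrd6 had 0 to 3 counts per library. Of all genes with promoters below 10%, 11.9% were below 1 CPM throughout.

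Several of the expressed genes have features that bear on how their reads and sites can be paired. Of the 1122 exon bases of Sycp3, 536 overlap exons of Chpt1 on the other strand, which was at 35.96 CPM. The sources used here give no strand setting, so the reads of the 2 genes may not have been told apart there. Piwil2, the PIWI protein of piRNA biogenesis, had no shared site at its first annotated 5′ end, but the transcript counted here starts 7790 bp further downstream. Upstream of that start, at 7339 to 7498 bp from the first 5′ end, 5 shared sites averaged 81.3%, between 70.8% and 89.7% by library. No shared site in the window of that start lay at it or downstream of it. Brdt, the testis bromodomain protein, had 88.6% over 2 shared sites and 54 to 91 counts per library on its long transcript.

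Between Week 1 and Week 3, 3 of the germline genes were called for expression by the main test, which did not pair the libraries. Counts were compared with edgeR's quasi-likelihood test over 14322 genes that passed its filter on low counts, with Benjamini-Hochberg adjustment, and 37.4% of these were called at an adjusted p below 0.05 (19.7% higher and 17.8% lower at Week 3). Of the 35 germline genes, 11 passed that filter, 1 was higher and 2 were lower. A gene can pass the filter through the week in which it is high, so this count describes the genes with enough reads and not the set. The median log2 fold change was 0.08 over the 11 and -0.01 over all tested genes. Raw counts of the germline genes summed to 2459 at Week 1 and 2308 at Week 3. These sums are not scaled for depth, which was 14361518 to 15893158 counts per library at Week 1 and 15988473 to 19774396 at Week 3.

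Piwil2 fell. It stood at 20.1, 13.7 and 18.9 CPM in the Week 1 libraries and at 11.5, 10.1 and 13.5 CPM in the Week 3 libraries. All Week 3 values lay below all Week 1 values, as they did in one direction or the other for 51.4% of tested genes. The means were 17.6 ± 3.36 and 11.7 ± 1.69 CPM (SD, n = 3), a log2 fold change of -0.59 ± 0.16 (SE) with an edgeR adjusted p of 0.0171. The call was lost without Week 1 replicate 1, Week 1 replicate 3, Week 3 replicate 1 or Week 3 replicate 2, at edgeR adjusted p of 0.0648, 0.067, 0.0553 and 0.0626.

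Rec8, the meiotic kleisin of cohesin, fell from low counts. It had 1.99, 1.22 and 1.89 CPM at Week 1 and 0.654, 1.07 and 0.915 CPM at Week 3, without overlap. The means were 1.70 ± 0.421 and 0.879 ± 0.210 CPM (SD, n = 3), a log2 fold change of -0.92 ± 0.30 (SE) with an edgeR adjusted p of 0.035. The call was lost with DESeq2 (adjusted p 0.101) and, in edgeR, without Week 1 replicate 1 (0.125), Week 1 replicate 3 (0.109), Week 3 replicate 1 (0.115) or Week 3 replicate 3 (0.0796).

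Brdt rose. It had 3.50, 3.13 and 4.18 CPM at Week 1 and 5.49, 4.71 and 5.55 CPM at Week 3, without overlap. The means were 3.61 ± 0.533 and 5.25 ± 0.471 CPM (SD, n = 3), a log2 fold change of 0.54 ± 0.16 (SE) with an edgeR adjusted p of 0.0257. The call was lost with DESeq2 (adjusted p 0.0726) and, in edgeR, without Week 1 replicate 1 (0.0747), Week 1 replicate 2 (0.0656), Week 3 replicate 1 (0.0786) or Week 3 replicate 3 (0.0781).

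Sycp3 and Tex15 lay just outside the threshold. Sycp3 had 2.30, 2.44 and 2.43 CPM at Week 1 and 3.33, 3.21 and 3.35 CPM at Week 3, without overlap, and a log2 fold change of 0.46 ± 0.17 (SE, edgeR adjusted p 0.0517). Tex15, a factor for meiotic recombination and for silencing of transposons, had 3.44, 4.35 and 3.64 CPM and then 1.77, 3.37 and 2.01 CPM, and a log2 fold change of -0.66 ± 0.25 (SE, edgeR adjusted p 0.0581). It passed with the replicate number as a block (adjusted p 0.0144), and without Week 3 replicate 2 (0.00785).

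Rnf17, a Tudor and RING protein of the piRNA pathway, varied with the replicate number more than with the week. It had 4.89, 3.07 and 1.75 CPM in Week 1 replicates 1, 2 and 3, and 7.32, 4.87 and 1.95 CPM in Week 3 replicates 1, 2 and 3, so each Week 3 library stood above the Week 1 library of its number while the weeks overlapped. Its log2 fold change was 0.52 ± 0.53 (SE, edgeR adjusted p 0.48), and 0.53 with the replicate block (adjusted p 0.0237).

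The other 5 genes tested gave no call. Stag3 had 13.3, 13.2 and 12.2 CPM at Week 1 and 12.03, 11.9 and 10.5 CPM at Week 3, without overlap and with a log2 fold change of -0.17 ± 0.10 (SE, edgeR adjusted p 0.222). Smc1b had 0.812 to 1.27 CPM and 0.963 to 1.96 CPM (log2 fold change 0.45 ± 0.33, adjusted p 0.312). Tex14 had means of 1.18 and 1.15 CPM, Sycp2 0.667 and 0.722 CPM, and Mov10l1 0.657 and 0.699 CPM, with edgeR adjusted p of 0.946, 0.816 and 0.878. These values do not show that the genes stayed the same: the SE of the log2 change was 0.10 for Stag3 and 0.32 to 0.43 for the other 4.

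Promoter methylation of the set gave no call between the weeks. Sites of a promoter were combined in a stratified test of methylated against unmethylated reads, with the spread between libraries of a week as error, over 12646 promoters. At an adjusted p below 0.05, 0.0% of all promoters and 0 of the 20 germline promoters were called; at an unadjusted p below 0.05 it was 421 of all (3.33%) and 0 of the 20. Tests by limma on logit levels and by edgeR on summed reads called none either, with 510 and 500 promoters at an unadjusted p below 0.05, among them 1 of the 20 by limma (Tdrd9, unadjusted p 0.0319) and 0 by edgeR. Hormad2 had an unadjusted p of 0.0193 with the replicate block, 0.00694 without Week 1 replicate 1 and 0.046 without Week 3 replicate 2, and Mei1 0.0117 without Week 3 replicate 1. The libraries of the 2 weeks did not overlap in 3 of the 20, or 15.0%, and in 8.9% of all promoters. The difference, Week 3 minus Week 1, had a median of 0.31 points over the 20 and -0.05 points over all 12906 promoters, and ran from -9.95 to 18.5 points.

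Hormad2 had the smallest p in the set. Its levels were 48.6%, 60.8% and 51.9% at Week 1 and 44.9%, 45.8% and 40.7% at Week 3, without overlap. The week means were 53.8% ± 6.28 and 43.8% ± 2.74 (SD, n = 3), and the stratified test, which was moderated with limma, gave an adjusted p of 0.867 and an unadjusted p of 0.0511. Tdrd9 was next, at 89.0%, 90.2% and 95.8% and then 83.8%, 83.3% and 85.5%, again without overlap, with the same adjusted p. The third without overlap was Dpep3, which was higher at Week 3 by 2.54 points.

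In Mei1 and Tdrd6 the difference rested mainly on 1 library. Mei1 read 16.6%, 13.6% and 20% at Week 1 and 14.2%, 63.0% and 28.5% at Week 3, where the 63.0% is Week 3 replicate 2. Its 5 sites lie within 1 short stretch and had 18 to 24 reads there; at the best covered site 10 of 24 reads were methylated (41.7%, 95% Wilson interval 24.5% to 61.2%), and at the others 39.1% to 100%. Tdrd6 read 1.96%, 2.92% and 3.47% and then 3.24%, 23.8% and 6.07%, where 23.8% is again Week 3 replicate 2. Its 12 sites there had 13 to 16 reads each and read either 0% or 46.2% to 50%. Limits and intervals cover counting error only, since PCR copies are not independent molecules. Without that library the Mei1 difference was 4.57 and the Tdrd6 difference 1.87 points, against 18.5 and 8.27 with it.

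Genes that write, read or remove DNA methylation were expressed, with changes in both directions. Of 14 genes of DNA methylation, 5 rose and 2 fell at Week 3 by edgeR, where 19.7% of all tested genes rose and 17.8% fell; their median log2 change was 0.18. Uhrf1, the partner of DNMT1, rose from 2.93 ± 0.721 to 6.39 ± 1.02 CPM (SD, n = 3; log2 fold change 1.12 ± 0.20 SE, adjusted p 0.00193). Tet1, which oxidises methylcytosine, rose from 35.01 to 63.2 CPM (0.85 ± 0.15, adjusted p 0.00302), Tet3 from 39.6 to 53.3 CPM (adjusted p 0.00716), Mbd2 from 104.6 to 124.2 CPM (adjusted p 0.0097) and Dnmt3a from 99.7 to 129.7 CPM (adjusted p 0.0123). Dnmt1 stood at 62.1 and 71.3 CPM (log2 fold change 0.20 ± 0.08, adjusted p 0.0805, and 0.0401 with the replicate block). Tet2 and Dnmt3l fell.

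Of 15 genes of the Polycomb complex with E2F6, 1 rose and 5 fell, where 19.7% of all tested genes rose and 17.8% fell. The share called in either direction was close to the 37.4% of all tested genes, and the median log2 change was -0.05. Those that fell were Wdr5 (log2 fold change -0.32, edgeR adjusted p 0.005), Mga (-0.23, 0.00931), Rnf2 (-0.22, 0.0264), Pcgf6 (-0.28, 0.0293) and L3mbtl2, and Hdac1 rose (0.49, 0.0164). E2f6 had 17.5 ± 1.40 and 19.9 ± 1.14 CPM (SD, n = 3; edgeR adjusted p 0.139). Of 11 genes of H3K9 methylation, 3 rose and 2 fell, beside the same 37.4% called over all tested genes, with a median of -0.06. In this list Mphosph8 (-0.37, 0.00182) and Setdb1 (-0.19, 0.0432) fell, and Zfp644 (0.23, 0.00802), Ehmt2 (0.18, 0.0271) and Atf7ip (0.21, 0.0466) rose. None of the promoters with enough sites was at 50% or more: 0 of 9 for DNA methylation, 0 of 14 for the Polycomb complex and 0 of 9 for H3K9 methylation.

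A wider list of 44 other germline genes, of which 43 were in the tables, was mixed. Of these, 30 were below 1 CPM in all libraries, and of 22 promoters with enough sites 6 were at 50% or more and 14 below 10%. The methylated ones were Tex101 (89.6%), Tuba3a (89.2%), Tex19.1 (88.9%), Spo11, Meioc and Nanos2 (52.2%), and each of the 6 was below 1 CPM throughout. Among 15 tested for expression, the meiotic recombinase Dmc1 rose from 1.95 ± 0.722 to 5.01 ± 0.488 CPM (SD, n = 3; edgeR log2 fold change 1.35, adjusted p 0.00183) with a promoter at 5.44%, and Tdrkh rose (0.70, adjusted p 0.0214). Mybl1, a transcription factor of meiotic prophase, fell from 29.3 to 16.3 CPM (log2 fold change -0.85, edgeR adjusted p 0.000727), and Hspa2 fell (-0.35, adjusted p 0.018).

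The promoter sequences were also searched for motifs, which the choice of genes did not use. The 30 germline genes with an entry had 36 promoter sequences of 300 bases. Some genes had more than 1, and these can be nearly the same stretch: those of Hormad1 start 2 bp apart. A few lie far from the 5′ end used here, as that of Mei1, which starts 12359 bp downstream. An E-box, CACGTG, was present on either strand in 18 of the 36 (50%), against 7.15% of 32851 promoter sequences of that length in RefSeq. Counted by gene, it was present in 15 of the 30. The E2F6-type motif TCCCGC was present on either strand in 12 of the 36 (33.3%), against 19.98% of all. Counted by gene, it was present in 11 of the 30. Both motifs contain a CpG, and the background was not matched for CpG content. The motifs were searched apart, and a match to each can share a base with the other. Of the printed promoters, Mael, Slc25a31, Sycp1 and Ddx4 hold both, Smc1b holds TCCCGC alone and Hormad2 neither. These matches are letters in a window and say nothing on their own about binding.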

How the data were processed

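Per the submitters' processing notes and the series description, reads were base-called with CASAVA 2.17, trimmed with Flexbar, aligned to mm10 with STAR, and the authors deposited featureCounts counts per RefSeq transcript. The sources used here give neither the STAR and featureCounts versions nor a strand setting. For ERRBS, the authors deposited, per the file headers, the coverage of each CpG cytosine, a count of reads from 10 upward, and the percent of reads with C (methylated) or T. The notes name Bismark.

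For each gene the transcript with most counts over all libraries was used; 394 of 30048 accessions had no symbol (1.53% of counts). The 5′ end was that of the 5′-most curated RefSeq transcript on GRCm38.p6, of which mm10 has the same coordinates. RNA tests used edgeR 4.0.16 in R 4.3.3 (robust quasi-likelihood fit after TMM and filterByExpr) and, as an alternative, DESeq2 1.42.0; CPM are TMM-scaled. Promoter methylation was the mean over shared sites. Reads were compared between weeks by a Mantel-Haenszel score statistic with sites as strata, its error taken between libraries of a week and moderated with limma 3.58.1. Both tests were run on simulated data as a check of the code. That check does not measure how small a change they could find at the germline promoters. Alternatives covered normalisation, filters, coverage, window, site number, thresholds, the replicate block and each library left out.

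Nothing in the labels ties replicates to separate cultures or animals, and p-values thus cover only the spread among these libraries. RNA libraries of the same number deviated together (correlations 0.259, 0.376 and 0.194, against -0.276 to 0.061 for unlike numbers). Whether they are paired across weeks is not given. The main RNA test did not pair them, and the replicate block was run as an alternative. All 35 genes are accounted for; full values are given for those that passed the RNA filter, for the 5 highest and lowest promoters and the 5 smallest p in the methylation test, and for up to 4 genes per list. The genes and lists were chosen with earlier results of these data known.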

Additional observations from a re-analysis of the deposited data

How the results depend on the processing

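The count of methylated germline promoters, 15 of 20, held at 15 to 16 when any 1 library was left out, at 15 with a window of 500 bp on each side or pooled reads, and at 12 with a threshold of 70%. With a coverage minimum of 20 reads 7 promoters were left, 5 at 50% or more and 1 below 10%, with a median of 73.8%; with at least 10 sites the median was 78.5%. Alternatives added after seeing the data gave a median of 81.9% (5′ end of the counted transcript), 88.0% with 1 below 10% (sites downstream of the 5′ end only), and 1 below 10% (sites covered in 4 or more libraries). The count below 1 CPM was 25 or 26 under all alternatives that kept this threshold, and 23 genes were below 0.5 CPM. Germline genes called for expression, 3 in all, numbered 1 with DESeq2, 5 with the replicate block, and 0 to 3 with 1 library left out; genes called overall numbered 3980 to 5762 with 1 left out. Sycp2, Tex14 and Mov10l1, none called, changed sign with 1 library left out, with log2 changes of -0.21 to 0.46, -0.37 to 0.21 and -0.0093 to 0.23. No promoter was called for methylation under any alternative, and the ERRBS libraries of one number did not deviate together (correlations 0.008, 0.000 and 0.001); the replicate block called 0 promoters. Promoter levels are limited by coverage, lowest in Week 1 replicate 3, and gene calls by counts of 10 to 332.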
